A study of Mus musculus with 6 samples.

Results

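The 4 mouse iPS cell lines of the series were compared with the fibroblasts they were made from, over all genes on the array. The comparison uses 5 of the 6 arrays. On the iPS side stood FAH−/−-iPS cell lines #4 and #7 and their gene-corrected counterparts, FAHgc-iPS cell line #7.1 and line #7.2, with 1 array each. They were set against 1 array of FAH MEFs, fetal fibroblasts of C57BL/6 mice without fumarylacetoacetate hydrolase, taken from fetuses of both sexes. The fibroblasts and the iPS cells made from them thus share the FAH−/− genotype. Lines #4 and #7 are clones obtained by gamma-retroviral transfer of Oct4, Sox2, Klf4 and c-Myc. Lines #7.1 and #7.2 are subclones of line #7 that also carry a lentiviral FAH cDNA joined to EGFP under the SFFV promoter, so that 3 of the 4 lines share 1 derivation. The iPS cell lines were grown on MEF feeder cells, whose RNA may be part of their signals. The study ascribes a weak wild-type FAH band in the genotyping of iPS cells to these feeder cells. The remaining array, of OG2 ES cells with an Oct4-GFP reporter, is given beside the values. The MEFs were arrayed once, and the fit assumes that their array varies like those of the iPS cell lines. All p-values therefore measure the spread between these cultures only.

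Fibroblasts are adherent mesenchymal cells that secrete collagen-rich matrix, pull on it with actin cables and answer growth factors, cytokines and viral nucleic acids. Naive mouse pluripotent cells grow as tight epithelial colonies, divide rapidly with a short G1 phase and keep much of their chromatin open. In reprogramming, the first type is turned into the second, so that the comparison holds the differences between 2 cell states as well as those of culture. The description here leaves the core pluripotency and fibroblast markers aside after a check and goes through signalling, cell structure, cell division, chromatin, metabolism and RNA.

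Signals of the arrays were background-corrected, quantile normalized and taken to log2, and are called log2 signals below. Between 46.6% and 48.6% of 25697 probes were above background on the 5 arrays. With so few arrays, their number sets how precise the values are. Of 14 fibroblast markers, 13 were lower and none was higher in the iPS cell lines, and of 19 pluripotency markers, 17 were higher and none was lower. The summed signal of the fibroblast markers was between 3.34% and 4.58% of that of the MEFs in the 4 lines, with 10 or 11 of 14 above background. Of the Y-linked genes, Eif2s3y, a translation initiation factor subunit, had log2 signals of 6.15, 9.59, 9.46 and 9.73 in lines #4, #7, #7.1 and #7.2, against 9.18 in the MEFs and 5.87 in OG2 ES cells. Kdm5d, a histone demethylase, had 5.99, 6.97, 6.69 and 6.92 in the same order, against 6.89 in the MEFs and 5.97 in OG2 ES cells. In line #4 neither gene was above background, while Uty was above background in all 4 lines. The study describes lines #4 and #7 as male by spectral karyotyping. It also names Eif2s3y and Jarid1d (Kdm5d) among the few genes that differed between these lines. Xist, the RNA of the inactive X chromosome, was above background only in line #7 of the 4 lines (6.34) and had 7.30 in the MEFs. By another probe of Xist, the lines differed from the MEFs by −0.45 on the log2 scale. Fah had 7.11, 7.24, 7.11 and 6.99 in the lines, against 6.29 in the MEFs, which was not above background. The Fah signal was no higher in lines #7.1 and #7.2, which carry the transferred cDNA, than in lines #4 and #7, which do not. Whether the Fah probe detects the knocked-out transcript or the transferred cDNA is not known.

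Of 10499 genes tested, 1400 (13.3%) were higher and 1380 (13.1%) lower in the iPS cell lines, at a Benjamini-Hochberg adjusted p under 0.05 from limma and a difference of at least 2-fold. The median log2 fold change over all tested genes was 0.032. In every called gene, all 4 lines lay on the same side of the MEFs, and 1131 of the higher and 1161 of the lower genes were at least 2-fold from the MEFs in each of the 4 lines. Scaling the arrays to a common median in place of quantile normalization moved the split to 1050 higher and 1846 lower genes and the median to −0.07. Large decreases outnumbered large increases, with 177 genes at least 8-fold lower and 94 at least 8-fold higher. Where a gene was not above background on any array of a group, only a minimum of the fold could be given, marked by the words at least. Of the 2780 calls, 372 rest on such a bound, and 287 of these bounds reach 2-fold. A gene with several probes is given by its brightest. Of 104 called genes named here that have another probe above background, 38 had one that differed by under 2-fold or in the other direction. Those values are given beside most of these genes.

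**Figure D1:**
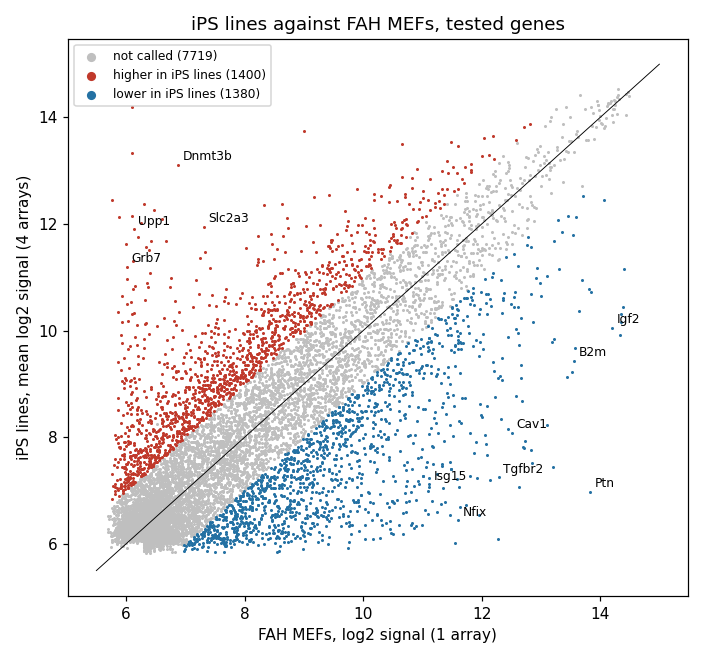
Mean log2 signal of the 4 iPS cell lines (vertical axis) against the log2 signal of the MEF array (horizontal axis) for the 10499 tested genes, with equality as a line. The 1400 genes called higher lie above the line and the 1380 called lower below it, Ptn and Dnmt3b being among the farthest from it.

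The genes farthest apart outside the pluripotency and fibroblast marker lists were of different kinds on the 2 sides. On the high side, the de novo DNA methyltransferase Dnmt3b led with log2 signals of 12.92, 13.27, 13.02 and 13.23 in lines #4, #7, #7.1 and #7.2, against 6.88 in the MEFs and 12.21 in OG2 ES cells (6.24 on the log2 scale, SE 0.16, adjusted p = 1.5e-10). Bex4 followed at 5.80. The uridine phosphorylase Upp1, which breaks uridine down to uracil, was at least 48.7-fold higher, the imprinted pleckstrin homology protein Phlda2 at least 40.2-fold, the adaptor Grb7 at least 29.9-fold and the AP-2 factor Tfap2c at least 25.6-fold. Chchd10, a small protein of mitochondria, had a log2 fold change of 4.73, and the secreted protein Wfdc2 one of 5.5. On the low side, the heparin-binding growth factor Ptn had 7.17, 7.04, 6.88 and 6.85 in the lines, against 13.83 in the MEFs, a difference of −6.84 (SE 0.16, adjusted p = 8.3e-11). The proteoglycan Ogn was at least 37.9-fold lower, and the matrix protein Fbln2, the calcification inhibitor Mgp and the collagen chain Col6a1 had log2 fold changes of −5.34, −4.91 and −4.89. Other probes of Col6a1 differed by −4.58 and −0.57. Most of these low genes encode secreted proteins of connective tissue, whereas the high ones include enzymes, adaptors and nuclear factors.

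**Figure D2:**
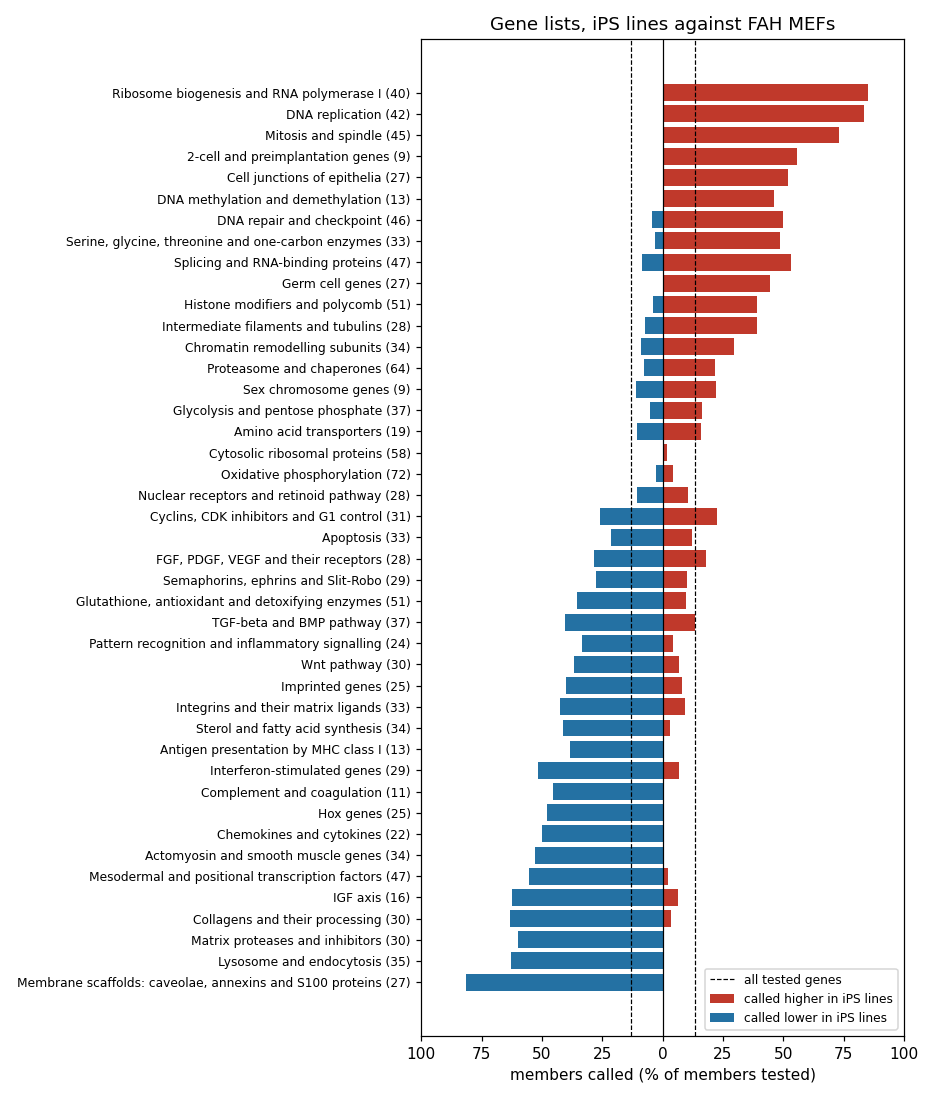
Share of the tested members of each gene list called higher (red, right) or lower (blue, left) in the iPS cell lines than in the MEFs, with the number tested in parentheses and the shares over all tested genes (13.3% and 13.1%) dashed. Ribosome biogenesis and DNA replication stood at the top, with 34 of 40 and 35 of 42 members higher, and membrane scaffolds at the bottom, with 22 of 27 lower.

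Part of the genes induced by interferon were lower in the iPS cell lines. Interferons are secreted after viral infection and switch on antiviral genes through STAT and IRF factors, which bind a promoter element named ISRE. Of 29 interferon-stimulated genes tested, 15 were lower, 2 were higher and 12 did not pass (median log2 fold change −1.2). Isg15, a ubiquitin-like protein that is joined to other proteins in the antiviral response, had log2 signals of 6.77, 7.47, 7.00 and 7.25 in lines #4, #7, #7.1 and #7.2, against 11.11 in the MEFs and 6.78 in OG2 ES cells. Its log2 fold change was −3.99 (SE 0.22, adjusted p = 2.8e-08). Usp18, the protease that removes Isg15, had 6.67, 6.80, 6.77 and 6.82 against 10.17 in the MEFs and was 10.6-fold lower. All 4 lines were close to each other and far below the MEFs for both members of this pair. Ifit3, which binds foreign RNA complexes, was 13.4-fold lower, the oligoadenylate synthetase-like Oasl2 9.21-fold and the guanylate-binding protein Gbp3 4.07-fold. Oasl2 has a second probe, at −0.72. Eif2ak2, the kinase PKR that halts translation when it meets double-stranded RNA, had a log2 fold change of −2.48. The 2 higher members were Ifitm1 (1.40, with a second probe at 0.13 and a mean of 0.62) and Irgm1 (1.10). Other probes of Irgm1 differed by −1.17 and −0.17, and its mean over probes turned to −0.08, so its direction depended on the probe.

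Promoter sequences are shown for the interferon group because these genes share a described response element. The motif searched was the core of the ISRE, spelled as GAAA, any 2 bases and GAAA, on both strands of the window from 250 bases before to 50 bases after each start site in RefSeq (GRCm38.p6). It was present in 3.44% of all 32851 windows. Of the 15 lower genes, 13 had windows matched by symbol. The motif was present in 8 of their 16 windows (50%), which belong to 8 of the 13 genes. It was also present in 3 of the 7 windows (42.9%) matched to members that did not pass. Below, 80 bases from the part before the start site are given 5′ to 3′ on the strand of the gene, with the motif in capitals, for Isg15 (chr4:156200852-156200931, minus strand), Ifit3 (chr19:34583338-34583417, plus strand) and Gbp3 (chr3:142559964-142560043, plus strand).
Isg15: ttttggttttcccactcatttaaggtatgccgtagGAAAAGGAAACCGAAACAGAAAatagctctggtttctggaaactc
Ifit3: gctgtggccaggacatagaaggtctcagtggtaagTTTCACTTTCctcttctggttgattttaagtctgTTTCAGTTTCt
Gbp3: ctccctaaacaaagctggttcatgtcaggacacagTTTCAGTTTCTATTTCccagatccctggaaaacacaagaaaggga
The 80 bases shown of Isg15, Ifit3 and Gbp3 hold 3, 2 and 2 matches, some of which overlap. A match describes the letters only, and no binding was measured.

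Other immune groups also held lower genes, beside many members that did not pass. MHC class I molecules show peptides from inside the cell to T cells, and need the light chain B2m and the peptide transporter Tap1-Tap2. B2m had log2 signals of 9.62, 9.38, 9.28 and 9.50 in lines #4, #7, #7.1 and #7.2, against 13.56 in the MEFs and 9.41 in OG2 ES cells, and was 17.3-fold lower (−4.11 on the log2 scale, SE 0.16, adjusted p = 1.8e-09). Another probe of B2m differed by −4.42. Tap2 was 3.74-fold and H2-T23 3.22-fold lower, and H2-D1 at least 2.09-fold, though under 2-fold without background correction (−0.92). Tap1 did not pass (−0.55). In all, 5 of 13 genes of class I presentation were lower, none was higher and 8 did not pass. Of 22 chemokines and cytokines, 11 were lower and none was higher (median −1.24). The stromal chemokine Cxcl12, which holds blood progenitors in their niche, had 7.22, 8.40, 7.93 and 8.19 in the lines, against 12.74 in the MEFs and 7.74 in OG2 ES cells. Although line #4 was lowest, all 4 lines lay far below the MEFs (−4.81 on the log2 scale, SE 0.32, adjusted p = 1.3e-07). The neutrophil chemokine Cxcl5 was 13.2-fold and the monocyte chemokine Ccl7 7.64-fold lower. Of 24 genes of pattern recognition and inflammatory signalling, 8 were lower, 1 was higher and 15 did not pass. Among the lower ones were Ly96, the partner of Tlr4 in sensing lipopolysaccharide (5.71-fold), the receptors Osmr (7.21-fold) and Tlr2 (3.22-fold) and Il6st, the shared receptor chain of the IL-6 family (3.55-fold). The higher one was Ifngr2, a chain of the interferon-gamma receptor, at 1.19, but its other probes differed by −1.26 and −1.31, and the mean over all 3 probes was −0.46. Of 11 complement and coagulation genes, 5 were lower and 6 did not pass. Among the lower ones were the thrombin receptor F2r (5.79-fold) and Thbd (4.75-fold).

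Markers of macrophages moved with the immune genes in part. Of 12 macrophage markers measured, 11 were above background in the MEFs and between 2 and 6 in the iPS cell lines, and their summed signal in the lines was between 42.1% and 53.7% of that in the MEFs. Of the 11 tested, 5 were lower, 1 was higher and 5 did not pass, at log2 fold changes between −0.53 and −0.18. The lysozymes Lyz1 and Lyz2 had log2 fold changes of −4.96 and −4.02, and C1qb, a chain of complement C1q, was at least 2.53-fold lower. Whether the probes tell Lyz1 and Lyz2 apart was not tested. The pan-leukocyte marker Ptprc was not above background on any of the 5 arrays. Laptm5, a lysosomal membrane protein of blood cells, went the other way, with 11.83, 11.33, 11.57 and 11.43 in lines #4, #7, #7.1 and #7.2, against 8.54 in the MEFs and 11.61 in OG2 ES cells. The part of macrophages in the immune and lysosomal results was not tested. In these bulk samples, fewer cells of a type and less RNA per cell cannot be told apart.

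Most lysosomal genes were lower. Lysosomes are the acid compartments in which enzymes degrade proteins, lipids and sugars. Of 35 lysosome and endocytosis genes tested, 22 were lower and none was higher (median −1.39). Lamp2, a major protein of the lysosomal membrane, had log2 signals of 9.97, 10.20, 10.21 and 10.25 in lines #4, #7, #7.1 and #7.2, against 12.87 in the MEFs and 10.23 in OG2 ES cells. Its log2 fold change was −2.72 (SE 0.15, adjusted p = 3.1e-08), and its 3 other probes differed by −2.74, −3.47 and −2.95. Cathepsin B (Ctsb) had 11.36, 11.14, 11.05 and 11.07 against 13.31 in the MEFs and was 4.44-fold lower. For both genes all 4 lines lay well below the MEFs. Cathepsin K (Ctsk), which degrades collagen, was 10.1-fold lower, the tetraspanin Cd63 8.13-fold, the sphingomyelinase Smpd1 5.51-fold and Psap, the precursor of the saposins that help degrade sphingolipids, 4.54-fold. Cathepsins D and L (Ctsd and Ctsl) did not pass (−0.26 and −0.10). Rab GTPases, which direct vesicles between compartments, had 15 lower and 2 higher members among 55 tested. Rab32 was 9.33-fold lower and Rab34 3.68-fold, whereas Rab25, of epithelial recycling endosomes, was at least 2.09-fold higher, though under 2-fold without background correction (0.98).

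**Figure D3:**
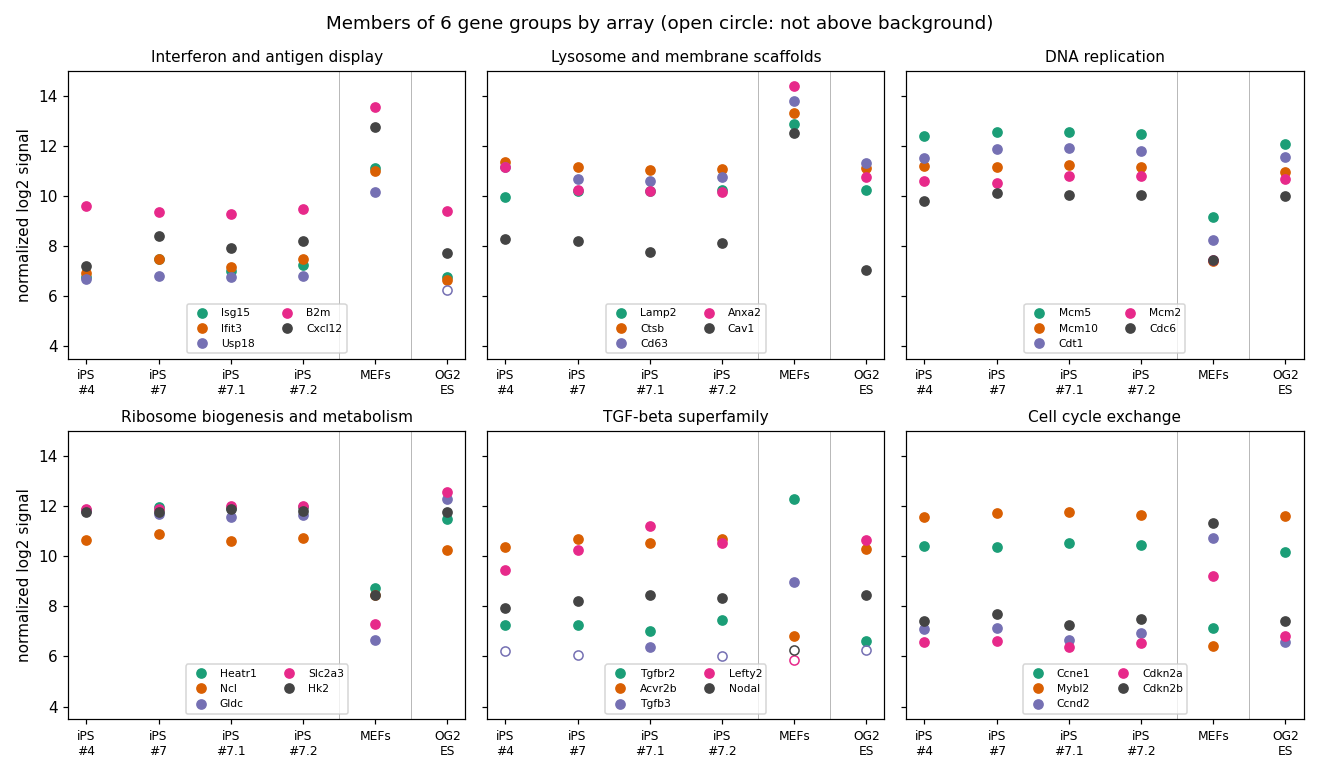
Log2 signals of 5 members each of 6 gene groups, by array (iPS cell lines left, then MEFs, then OG2 ES cells), with open circles for values not above background. The 4 lines lay below the MEFs for Isg15, B2m, Lamp2 and Tgfbr2 and above them for Mcm5, Heatr1, Gldc and Mybl2.

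Genes of the TGF-β family differed in both directions. TGF-β ligands signal through Tgfbr2 and Tgfbr1 and drive matrix production in mesenchyme, while Nodal signals through activin receptors and is held in check by the Lefty proteins in the early embryo. Of 37 TGF-β and BMP pathway genes, 15 were lower (40.5%), 5 were higher (13.5%, against 13.3% of all tested genes) and 17 did not pass. Tgfbr2 had log2 signals of 7.26, 7.27, 7.03 and 7.44 in lines #4, #7, #7.1 and #7.2, against 12.29 in the MEFs and 6.61 in OG2 ES cells, a log2 fold change of −5.04 (SE 0.16, adjusted p = 4.9e-10). A dimmer second probe of Tgfbr2 differed by −0.65. Its partner Tgfbr1 did not pass (−0.26). The ligand Tgfb3 was 7.10-fold lower, the induced matrix protein Tgfbi 23.1-fold, the latency protein Ltbp3 7.99-fold and the secreted protein Fstl1 11-fold. A second probe of Ltbp3 differed by −0.68. Lower as well were the type I receptor Acvr1 (−1.49), the activin antagonist Fst (−1.39) and the activin chain Inhba (−1.18). Inhba lost its call under several alternatives. Of the higher genes, the activin receptor Acvr2b had 10.36, 10.67, 10.53 and 10.67, against 6.83 in the MEFs and 10.27 in OG2 ES cells, and was 13.3-fold higher (3.73 on the log2 scale, SE 0.16, adjusted p = 3.5e-09). Nodal was at least 3.81-fold higher, Lefty1 6.58-fold and Lefty2 at least 16.6-fold. Gdf3, also listed as a pluripotency marker, was 14.1-fold higher.

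Most genes of the insulin-like growth factor axis were lower. IGF ligands promote fetal growth, IGF-binding proteins hold them in the tissue and Igf2r removes Igf2. Of 16 genes tested, 10 were lower and 1 was higher (median −2.06). Igf2 had log2 signals of 10.72, 9.96, 9.56 and 9.98 in lines #4, #7, #7.1 and #7.2, against 14.20 in the MEFs and 10.39 in OG2 ES cells, and was 17.8-fold lower (−4.15 on the log2 scale, SE 0.31, adjusted p = 2.9e-07). Igf2 thus stayed well above background in all lines. Igfbp5 was 42.6-fold lower, Igfbp4 13.3-fold, Igfbp7 10.5-fold and Igfbp6 at least 7.56-fold. Igf2r, the clearance receptor, was 4.19-fold lower. The higher gene was Igf2bp1, which binds Igf2 and other mRNAs, with 11.47, 11.31, 10.87 and 11.53 against 8.22 in the MEFs (8.39-fold). Several of these genes are imprinted, that is, expressed from 1 parental copy. Of 25 imprinted genes, 10 were lower (40%) and 2 higher (8%), against 13.1% and 13.3% of all tested genes. Dlk1 had a log2 fold change of −4.93, Ndn −3.51, the CDK inhibitor Cdkn1c −3.16 and Gnas −2.42, whereas Phlda2 and Snrpn (2.56) were higher, so imprinted genes did not move as a block.

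Ligands, receptors and inhibitors of other pathways were called in both directions, more often lower. The shares over all tested genes were 13.3% higher and 13.1% lower. Of 30 Wnt pathway genes, 11 were lower (36.7%) and 2 higher (6.67%). The lower ones were led by the matricellular targets Ccn5 (15.2-fold) and Ccn4 (13.4-fold), the secreted protein Dkk3 (11.9-fold), the Frizzled-related inhibitor Sfrp2 (4.80-fold) and the ligand Wnt5a (4.74-fold). Other probes differed by −0.70 for Ccn4, by −0.31 and −3.44 for Dkk3 and by −0.89 for Wnt5a. Among the Frizzled receptors, Fzd1 was at least 3.45-fold and Fzd2 3.71-fold lower, while Fzd10 was at least 2.37-fold higher and Fzd7 2.05-fold. Fzd10 lost its call as the mean of its probes (0.79), its other probes being at 0.64 and 0.22. Fzd7 had log2 signals of 9.20, 9.18, 9.10 and 9.09 in lines #4, #7, #7.1 and #7.2, against 8.11 in the MEFs and 9.55 in OG2 ES cells, and was under 2-fold with median scaling (0.73) and without background correction (0.96). Among 28 genes of FGF, PDGF and VEGF signalling, 5 were higher (17.9%) and 8 lower (28.6%). The mesenchymal ligand Fgf7, which acts on epithelia, was 11.2-fold lower, the VEGF and semaphorin coreceptor Nrp1 12.9-fold, Vegfd 8.97-fold and the EGF receptor Egfr 6.16-fold. The 3 other probes of Egfr differed by −0.25, −0.94 and −0.97. Fgf17 was at least 7.03-fold higher, with 9.24, 8.85, 9.24 and 9.10 against 6.14 in the MEFs, Fgfbp1 at least 5.28-fold and Spry4, a feedback inhibitor of FGF signalling, 2.52-fold. Dusp6, which removes phosphate from ERK kinases, was 3.12-fold higher, and Dusp1 was 3.53-fold higher. A second probe of Fgf17 differed by 0.69, and other probes of Dusp6 by 1.61 and 0.66. Of 29 genes of axon guidance families, 8 were lower (27.6%) and 3 higher (10.3%). The repellent Slit2 had a log2 fold change of −3.65, its receptor Robo1 −1.95, the ligands Efna5 −2.89 and Sema3a −2.55, whereas the receptor Epha2 had 1.88 and Sema4b 1.73. Efna5 has a second probe, at −0.76.

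Many transcription factors of mesoderm and body position were lower, and nearly as many did not pass. Hox genes lie in 4 clusters and mark levels along the body axis. Of 25 Hox genes tested, 12 were lower, none was higher and 13 did not pass. Hoxc6 had log2 signals of 6.77, 6.38, 6.16 and 6.12 in lines #4, #7, #7.1 and #7.2, against 11 in the MEFs and 6.39 in OG2 ES cells, and was 25-fold lower (−4.65 on the log2 scale, SE 0.22, adjusted p = 7.1e-09). Hoxa7 was at least 6.91-fold lower, Hoxa5 at least 6.08-fold, Hoxc9 at least 5.06-fold, Hoxb7 at least 4.02-fold and Hoxd8 at least 3.01-fold. The lower Hox genes thus came from all 4 clusters. Of 47 mesodermal and positional factors, 26 were lower, 1 was higher and 20 did not pass. Nfix, of the nuclear factor I family, had 6.47, 6.58, 6.32 and 6.37 against 11.61 in the MEFs (log2 fold change −5.17), and its relative Nfib one of −3.86. By its second probe Nfix differed by −0.74. The limb and palate factor Osr2 was 24.2-fold lower, the Hox cofactors Meis2 and Meis1 13.6-fold and 10.1-fold, and Zeb1 and Twist2, which repress epithelial genes, 8.59-fold and 8.57-fold. Tbx3, a factor of both limb and pluripotent cells, was the higher one at 1.33 (SE 0.31, adjusted p = 0.0026), though its other probes were at 0.04 and 1.11 and the mean at 0.83. Among nuclear receptors and retinoid genes, Nr2f1 and the retinoid carriers Crabp1 and Crabp2 were lower (−3.68, −4.00 and −2.01), and Nr6a1 and Nr5a2 higher (2.91 and 1.21), outside the marker Esrrb. Nr5a2 was under 2-fold as the mean of its probes (0.57) and without background correction (0.89), and another of its probes differed by 0.56.

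Genes of the cell cortex and contractile apparatus were mostly lower or did not pass. Of 34 actomyosin genes, 18 were lower and none was higher (median −1.1). Acta2, the actin of smooth muscle and activated fibroblasts, had log2 signals of 10.35, 9.65, 10.14 and 9.54 in lines #4, #7, #7.1 and #7.2, against 14.33 in the MEFs and 9.39 in OG2 ES cells, and was 21.3-fold lower (−4.41 on the log2 scale, SE 0.26, adjusted p = 4.1e-08). The tropomyosins Tpm2 and Tpm1, which coat actin filaments, were 9.37-fold and 6.63-fold lower. By its second probe Tpm2 differed by −0.04. Tagln had a log2 fold change of −2.63 and Fhl2 −2.65. Of 27 scaffold proteins of the membrane, 22 were lower and none was higher, with a median of −2.42, the most negative of the lists outside the fibroblast markers. Caveolae are membrane pits built from caveolins and cavins. Cav1 had 8.27, 8.21, 7.78 and 8.12 against 12.51 in the MEFs and was 21.3-fold lower, Cavin3 was 32.3-fold and Cavin2 23.7-fold lower. The calcium-dependent phospholipid-binding annexins Anxa5 and Anxa2 were 16-fold and 15.4-fold lower, and Pmp22 and Emp3, of 1 family of tetraspan membrane proteins, 21.2-fold and 20.8-fold. S100a11, an annexin partner, was 9.49-fold lower. Galectin-1 (Lgals1) and galectin-3 (Lgals3), sugar-binding proteins named after their values were seen, had log2 fold changes of −4.05 and −2.55, and 5 of 7 galectin genes were lower.

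In intermediate filaments and lamins the direction depended on the member. Of 28 filament and tubulin genes, 11 were higher (39.3%) and 2 lower (7.14%), against 13.3% and 13.1% of all tested genes. The keratins Krt8 and Krt18, which pair in simple epithelia, were 12.1-fold and at least 4.82-fold higher, and Krt17 and Krt42 by no less than 9.09-fold and 8.02-fold. The mesenchymal filament Vim was lower (−3.41). Of the lamins, which line the nuclear envelope, Lmna had log2 signals of 10.07, 9.82, 9.49 and 9.69 in lines #4, #7, #7.1 and #7.2, against 11.69 in the MEFs and 9.58 in OG2 ES cells. Lmnb1 had 12.16, 12.16, 11.98 and 12.00 in the lines, against 10.17 in the MEFs and 11.96 in OG2 ES cells. Lmna was thus 3.78-fold lower, with its 4 other probes between −2.03 and −2.28, while Lmnb1 was 3.75-fold and Lmnb2 4.61-fold higher.

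Genes of epithelial junctions that passed were higher, and most of those for contacts with the matrix that passed were lower. Among 27 genes of epithelial junctions, 14 were higher (median 1.09), no member was lower and 13 did not pass. The splicing regulator Esrp1, which favours epithelial isoforms, had log2 signals of 10.45, 11.10, 10.68 and 11.08 in lines #4, #7, #7.1 and #7.2, was not above background in the MEFs (6.16) and had 10.59 in OG2 ES cells, so that it was at least 23.1-fold higher (SE 0.22 on the log2 scale, adjusted p = 8.6e-09). The tight junction proteins Cldn6 and Cldn4 were higher by at least 32.2-fold and 18.5-fold, E-cadherin (Cdh1) 23.3-fold, the sorting adaptor Ap1m2 at least 4.69-fold and the desmosome protein Pkp2 3.96-fold. Cldn11, a claudin outside the list that was named after its values were seen, was at least 7.92-fold lower. Of 33 integrins and matrix ligands, 14 were lower, 3 were higher and 16 did not pass. Integrin Itga11, a collagen receptor of fibroblasts, was at least 11.1-fold lower, and the matricellular proteins Thbs2 and Sparc 16.1-fold and 14.8-fold. The laminin chain Lama1, of the embryonic basement membrane, was at least 3.04-fold higher, with 7.91, 7.84, 8.07 and 7.78 against 6.13 in the MEFs. Itga3 was 2.46-fold higher.

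Genes that make and remodel matrix were mostly lower. Of 30 collagens and their processing enzymes outside the fibroblast markers, 19 were lower and 1 was higher. Loxl1, which crosslinks elastin and collagen, had log2 signals of 7.63, 7.82, 7.86 and 7.72 in lines #4, #7, #7.1 and #7.2, against 12.84 in the MEFs and 7.46 in OG2 ES cells, and was 33.9-fold lower (−5.08 on the log2 scale, SE 0.15, adjusted p = 2.6e-10). Col5a1 and the basement membrane chain Col4a2 were 29.1-fold and 17.0-fold lower, as was the collagen chaperone Serpinh1 (17.0-fold). Of 30 matrix proteases and inhibitors, 18 were lower and none was higher. The gelatinase Mmp2 and its activator Mmp14 had log2 fold changes of −4.30 and −3.56, and the inhibitors Timp3 and Timp2 of −3.95 and −3.62.

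Most genes for copying DNA were higher. The Mcm2 to Mcm7 helicase is loaded at origins by Cdc6 and Cdt1 and fired by kinases, after which polymerases and the sliding clamp Pcna take over. Of 42 DNA replication genes, 35 were higher and none was lower (median 2.07, against 0.032 for all tested genes). Mcm5 had log2 signals of 12.41, 12.56, 12.57 and 12.47 in lines #4, #7, #7.1 and #7.2, against 9.18 in the MEFs and 12.09 in OG2 ES cells, and was 10-fold higher (3.32 on the log2 scale, SE 0.14, adjusted p = 3.5e-09). Mcm10 had 11.19, 11.16, 11.22 and 11.17 against 7.41 in the MEFs and was 13.7-fold higher. These values barely differed among the lines. The loading factor Cdt1 was 11.7-fold higher, Mcm2 9.32-fold, the chromatin assembly factor subunit Chaf1b 7.78-fold and Mcm3 7.31-fold. Of 45 mitosis and spindle genes, 33 were higher and none was lower (median 1.43). The mitotic kinase Aurka was 5.39-fold higher, the condensin subunit Ncapd2 5.08-fold, the separase Espl1 4.93-fold and the anaphase activator Cdc20 4.69-fold. Other probes of Ncapd2 differed by 1.25 and 0.83. Of 46 genes of DNA repair and its checkpoint, 23 were higher and 2 lower. Ung, which removes uracil from DNA, had a log2 fold change of 4.13, the mismatch protein Msh6 3.12, the helicase Blm 3.10 and Parp1 2.70. The 3 other probes of Ung differed by 2.25, 0.59 and 0.37. The lower ones were Xpa, of nucleotide excision repair (−1.53), and Mgmt, which reverses alkylation (−1.17).

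Promoter stretches of 2 replication genes are shown because E2F factors are known to drive such genes at the start of S phase. The motif searched was TTTCCCGC, on both strands, in the same windows. It was present in 1.07% of all 32851 windows and in 13.9% of the 36 windows of 30 higher replication genes matched by symbol, against 3.33% of the 30 windows of 29 higher mitosis genes. Among replication genes that did not pass, 1 of 6 windows (16.7%) held it, so its share was no lower there. The members with a match were Cdc6, Mcm3, Mcm7, Pold1 and Pold3. Given below are 80 bases from the part before the start site of Mcm7 (chr5:138172005-138172084, minus strand) and Cdc6 (chr11:98907977-98908056, plus strand), 5′ to 3′ on the strand of the gene, with the motif in capitals.
Mcm7: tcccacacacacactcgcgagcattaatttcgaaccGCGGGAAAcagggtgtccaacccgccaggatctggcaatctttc
Cdc6: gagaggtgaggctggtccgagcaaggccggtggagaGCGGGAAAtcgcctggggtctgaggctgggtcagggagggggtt
Mcm7 and Cdc6, named here for these windows, had log2 fold changes of 2.12 and 2.56. The other probes of Cdc6 differed by 0.33 and 0.27, and as the mean of its probes (0.83) it was not called. As before, a match describes letters only.

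Control of G1 changed in both directions. Cyclin D with CDK4 or CDK6 starts the passage through G1, cyclin E with CDK2 completes it, and CDK inhibitors oppose both. Of 31 genes tested, 7 were higher (22.6%) and 8 lower (25.8%), against 13.3% and 13.1% of all tested genes. Mybl2, a transcription factor of dividing cells, had log2 signals of 11.57, 11.74, 11.77 and 11.66 in lines #4, #7, #7.1 and #7.2, against 6.42 in the MEFs and 11.59 in OG2 ES cells, and was 38.4-fold higher (5.26 on the log2 scale, SE 0.14, adjusted p = 1.9e-10). Cyclin E1 (Ccne1) was 9.92-fold higher and cyclin E2 (Ccne2) 2.10-fold, and their kinase Cdk2 was 2.84-fold higher. Ccne2 was under 2-fold with median scaling (0.99) and without background correction (0.84). Cyclin D2 (Ccnd2) had 7.08, 7.13, 6.65 and 6.92 against 10.71 in the MEFs and was 13.6-fold lower, whereas cyclin D3 (Ccnd3) did not pass (0.13). The CDK inhibitors named here were lower. Cdkn2b was 14.6-fold lower, Cdkn1c 8.92-fold, Cdkn2a 6.48-fold and Cdkn1a 3.24-fold, and the stress gene Gadd45g was 7.84-fold lower. Cdkn2a, from the locus it shares with Cdkn2b, had 6.58, 6.63, 6.37 and 6.55 in lines #4, #7, #7.1 and #7.2, against 9.23 in the MEFs and 6.83 in OG2 ES cells.

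Chromatin regulators that passed were mostly higher, and some complexes had subunits in both directions. Of 13 genes of DNA methylation, 6 were higher and none was lower. Dnmt3l, the cofactor without catalytic activity, had log2 signals of 12.37, 11.58, 11.55 and 11.52 in lines #4, #7, #7.1 and #7.2, was not above background in the MEFs (6.21) and had 12.44 in OG2 ES cells, which made it at least 44.1-fold higher. Line #4 stood above the other 3 lines and at the level of OG2 ES cells. Uhrf1, which guides the maintenance enzyme to newly copied DNA, was 6.78-fold higher and that enzyme, Dnmt1, 3.15-fold, while the relative Uhrf2 did not pass (−0.72). The second probe of Uhrf1 was at 0.36. Of 51 histone modifiers, 20 were higher and 2 lower. The polycomb proteins Phc1 and Phc2 went apart, with Phc1 at 12.12, 12.03, 12.13 and 12.13 against 8.72 in the MEFs (10.5-fold higher), and Phc2 at 8.20, 8.39, 8.35 and 8.35 against 9.38 (2.08-fold lower). Other probes of Phc1 differed by 3.36 and 0.16, and Phc2 was just under 2-fold without background correction (−0.99). Cbx7 was at least 7.07-fold higher, Pcgf6 7.71-fold, Wdr5 6.47-fold, Mtf2 5.78-fold and Eed 4.87-fold. Among 34 remodelling subunits, 10 were higher (29.4%) and 3 lower (8.82%), against 13.3% and 13.1% of all tested genes. The SWI/SNF ATPase Smarca2 (Brm) had 6.98, 7.41, 7.25 and 7.45 against 11.02 in the MEFs and 6.71 in OG2 ES cells, and was 13.5-fold lower on this probe, a dimmer one differing by −0.10. Its alternative Smarca4 (Brg1) did not pass (0.69). Of the paired core subunits, Smarcc1 was 2.70-fold higher and Smarcc2 2.23-fold lower. Smarcc1 lost its call as the mean of its probes (0.99, a second probe being at 0.55), and Smarcc2 without background correction (−0.90). Hmgb2 and the ATPases Ruvbl2 and Ruvbl1 had log2 fold changes of 2.78, 2.51 and 1.98, and Hmgn3 of −3.38.

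**Figure D4:**
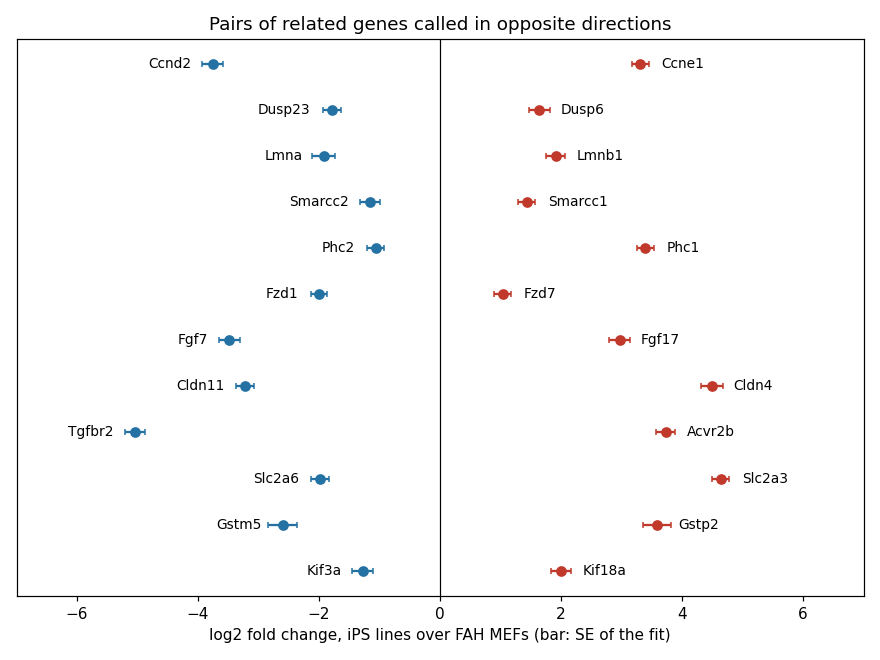
Log2 fold change of the iPS cell lines over the MEFs for 12 pairs of related genes called in opposite directions, with the SE of the fit as bars; pairs were chosen after their values were seen, and folds against a group below background are fitted values, not bounds. Higher members (red) lie right of 0 and lower members (blue) left, for instance Acvr2b at 3.73 and Tgfbr2 at −5.04. Smarcc1, Smarcc2, Phc2, Fzd7, Kif18a and Kif3a, 6 of the members drawn, lost the call under at least 1 alternative.

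Part of the genes of germ cells and of the 2-cell embryo were higher. Many of these are silenced by DNA methylation in somatic cells. Of 27 germ cell genes, 12 were higher and none was lower (median 0.92). Ooep, a maternal protein of the oocyte, had log2 signals of 11.31, 11.15, 11 and 10.88 in lines #4, #7, #7.1 and #7.2, against 6.4 in the MEFs and 12.68 in OG2 ES cells (4.68 on the log2 scale, SE 0.17, adjusted p = 1.2e-09). The X-linked homeobox gene Rhox5 was 21.9-fold higher, Tex19.1, which restrains retrotransposons, at least 14.9-fold, Dppa3 at least 11-fold and Tdrd12, of the piRNA pathway, at least 8.48-fold. The later germ cell markers Dazl and Ddx4 did not pass (0.55 and 0.48). Of 9 genes of the 2-cell and preimplantation embryo, 5 were higher and none was lower. Zscan4c, which marks a small share of ES cells at a time, was at least 3.26-fold higher (2.13 on the log2 scale, SE 0.58, adjusted p = 0.0079), and Khdc3 4.46-fold. Probes of near-identical family members, such as those of Zscan4, Rhox and Tcstv genes, may share signal, which was not tested.

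Metabolic gene groups differed in how many members passed. Of 33 enzymes of serine, glycine, one-carbon and nucleotide metabolism, 16 were higher and 1 was lower (median 0.91). Gldc, the decarboxylase of glycine cleavage, which feeds 1-carbon units to folate, had log2 signals of 11.81, 11.69, 11.55 and 11.66 in lines #4, #7, #7.1 and #7.2, against 6.67 in the MEFs and 12.29 in OG2 ES cells, and was 32.1-fold higher (5 on the log2 scale, SE 0.15, adjusted p = 2.7e-10). Gart and Ppat of purine synthesis were 7.95-fold and 6.19-fold higher, the folate enzyme Mthfd1 6.99-fold and the ribonucleotide reductase subunit Rrm2 5.47-fold. Aldh1l2, the mitochondrial enzyme that burns formyl-folate, was 15.6-fold lower. Of 37 genes of glycolysis and the pentose phosphate pathway, 6 were higher (16.2%, against 13.3% of all tested genes) and 2 lower, and 29 did not pass. The glucose transporter Slc2a3 had 11.90, 11.88, 12.01 and 12.01 against 7.31 in the MEFs and 12.57 in OG2 ES cells (25-fold higher), Slc2a1 was 4.03-fold higher, hexokinase Hk2 10.3-fold and the pyruvate dehydrogenase kinase Pdk1 6.76-fold. Of 72 genes of oxidative phosphorylation, 3 were higher and 2 lower, with a median of 0.01. The higher ones were Cox6b2, Cox7a1 and Cyc1 (1.91, 1.39 and 1.31) and the lower ones Ndufa3 and Ndufa2 (−1.26 and −1.03). A second probe of Cox6b2 differed by 0.10, and Ndufa2 lost its call without line #7. Of 19 amino acid transporters, 3 were higher and 2 lower (15.8% and 10.5%, near the shares of all tested genes), led by the arginine and lysine carrier Slc7a3 (16.2-fold higher, with a second probe at 0.13).

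Genes of lipid synthesis and detoxification that passed were mostly lower. Of 34 genes of sterol and fatty acid synthesis, 14 were lower and 1 was higher (median −0.74). The desaturases Scd1 and Fads1 had log2 fold changes of −2.16 and −2.15 and the elongase Elovl1 −2.29. Scd1 had log2 signals of 8.93, 9.15, 9.39 and 9.34 in lines #4, #7, #7.1 and #7.2, against 11.36 in the MEFs and 9.47 in OG2 ES cells. Lpl, which frees fatty acids from lipoproteins, was 6.93-fold lower and the lipoprotein Apoe 4.59-fold higher. Of 51 genes of glutathione and detoxification, 18 were lower (35.3%) and 5 higher (9.8%), against 13.1% and 13.3% of all tested genes. The cytochrome Cyp1b1 had 6.80, 6.66, 6.28 and 6.65 against 11.25 in the MEFs and was 25.2-fold lower, Mgst1 was 14.3-fold lower, with a second probe at 0.29, and Gpx8, a peroxidase of the endoplasmic reticulum, 11.9-fold. Glutathione S-transferases went both ways, with Gstm5 6.08-fold lower and Gsta4 and Gstp2 4.96-fold and 11.9-fold higher. Gclm, the modifier subunit of the enzyme that starts glutathione synthesis, was 4.00-fold higher. Whether the probes tell the close copies of this family apart was not tested.

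Most genes for making ribosomes were higher, while nearly all proteins of the finished ribosome did not pass. Ribosome biogenesis takes place in the nucleolus, where RNA polymerase I copies rRNA and many factors process it. Of 40 such genes, 34 were higher and none was lower (median 1.65). Heatr1 had log2 signals of 11.86, 11.96, 11.92 and 11.95 in lines #4, #7, #7.1 and #7.2, against 8.73 in the MEFs and 11.49 in OG2 ES cells, and was 9.12-fold higher (3.19 on the log2 scale, SE 0.14, adjusted p = 3.7e-09). The helicase Ddx21 was 5.81-fold higher, Rrp9 5.83-fold, Rrp12 5.71-fold, the H/ACA protein Nhp2 4.86-fold and nucleolin (Ncl) 4.85-fold. The second probe of Nhp2 was at 0.98. Of 58 ribosomal proteins of the cytosol, 1 was higher and none was lower, with a median of 0.02. The exception, Rps15a, had 8.04, 8.86, 9.16 and 9.18 and was not above background in the MEFs (6.09), on 1 probe. Among 41 translation initiation factors, 12 were higher, led by Eif2s2 (3.39-fold) and Eif3b (3.29-fold), and 2 lower, Eif2ak2 and the cap-binding Eif4e3 (3.08-fold). A second probe of Eif3b differed by 0.35, other probes of Eif4e3 by −0.26 and −0.97, and Eif4e3 was not called as the mean of its probes (−0.95).

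Genes of RNA processing, protein folding and cell death were called in both directions. The shares over all tested genes were 13.3% higher and 13.1% lower. Of 47 splicing and RNA-binding genes, 25 were higher (53.2%) and 4 lower (8.51%). The lower ones were the muscle- and neuron-type regulators Celf2 (−2.62), Mbnl2 (−2.57), Mbnl1 (−1.74) and Rbfox2 (−1.02), while spliceosome subunits such as Sf3b3 (1.84) and Lsm2 (1.81) were higher. As the mean of its probes Mbnl1 was at −0.80, and Rbfox2 was under 2-fold in 4 alternatives, between −0.81 and −0.99. Another probe of Rbfox2 differed by −0.61. Mbnl1 had log2 signals of 8.87, 8.72, 8.85 and 8.64 in lines #4, #7, #7.1 and #7.2, against 10.52 in the MEFs and 6.92 in OG2 ES cells, so that the lines lay between the other cultures. Of 64 proteasome and chaperone genes, 14 were higher (21.9%) and 5 lower (7.81%). The cytosolic chaperones Hsp90aa1 and Hspa4 were 4.24-fold and 3.88-fold higher and the chaperonin subunit Cct6a 3.29-fold, whereas Bag3 and the small heat shock protein Cryab, both tied to stressed filaments, were 3.68-fold and 3.65-fold lower. As the mean of their probes, which include some not above background, Hsp90aa1 (0.97) and Hspa4 (0.95) were under 2-fold. Of 33 apoptosis genes, 7 were lower (21.2%) and 4 higher (12.1%, near the share of all tested genes). The death receptor Fas and its caspase Casp8 were 6.98-fold and 4.83-fold lower, with Fas at 6.60, 6.46, 6.29 and 6.75 against 9.33 in the MEFs, and the survival factor Mcl1 was 3.91-fold higher.

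Large gene families named by symbol had members on both sides. Of 207 solute carriers, 22 were higher and 22 lower, 10.6% each way and below the shares of all tested genes (13.3% and 13.1%). The zinc importer Slc39a4 was at least 6.17-fold higher, while Slc39a13, another zinc carrier, was 5.92-fold lower, as were the iron exporter Slc40a1 (9.25-fold) and the sodium-calcium exchanger Slc24a3 (at least 5.32-fold). Slc40a1 had log2 signals of 7.20, 7.64, 7.55 and 7.52 in lines #4, #7, #7.1 and #7.2, against 10.69 in the MEFs and 8.03 in OG2 ES cells. Of 201 genes named Zfp, 15 (7.46%) were higher and 9 (4.48%) lower, also below those shares. Zfp979 and Zfp296 were 10.3-fold and at least 9.17-fold higher, and Zfp362 and Zfp46 5.4-fold and 4.80-fold lower. Of 24 kinesins, 8 were higher and 3 lower. The share of higher kinesins lay above the 13.3% of all tested genes, while that of lower kinesins was close to the 13.1%. The higher ones were led by the spindle motors Kif15 (4.82-fold) and Kif18a (4.00-fold), and all 3 lower ones belong to the transport motor kinesin-2, namely its subunits Kif3a (2.43-fold) and Kif3c (2.16-fold) and the associated Kifap3 (2.24-fold). As means of their probes, Kif15, Kif18a, Kif3a, Kif3c and Kifap3 were under 2-fold, and other probes of the last 3 lay between −0.44 and −0.67.

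The 4 lines were close to each other, with a median SD of 0.128 over tested genes, but a few of the called genes were far from uniform. Mest, an imprinted gene, had log2 signals of 9.36, 9.25, 9.93 and 6.07 in lines #4, #7, #7.1 and #7.2, against 11.35 in the MEFs and 9.29 in OG2 ES cells. It was not above background in line #7.2 alone, and the difference from the MEFs (−2.69, SE 1.00, adjusted p = 0.038) had an adjusted p of 0.05 without line #7 and 0.094 on the authors' own values. Zscan4c had 9.26, 7.06, 8.33 and 7.37, and Tcstv3, another gene of the 2-cell embryo, 7.69, 6.53, 7.34 and 6.75, both highest in line #4 and lowest in line #7. Tcstv3 was under 2-fold without background correction (0.94). Without line #7.2 or #7.1 Zscan4c kept its call, but with lines #4 and #7 only its adjusted p was 0.052. Gbx2, a homeobox factor, was highest in line #4 (10.52, against 9.17, 9.38 and 9.05 in the other lines), as was Bmp4 (8.72, against 7.42, 7.43 and 7.50), which in line #4 came close to the MEFs (8.89). Lefty2 had 9.45, 10.23, 11.21 and 10.51, and Inhba, a chain of activin, 8.67, 8.20, 6.97 and 7.79, so that line #7.1 was highest in the one and lowest in the other. Fgf5, a gene of the later epiblast, had 6.68 in line #4, near the MEFs (6.47), and 8.12, 7.61 and 8.20 in lines #7, #7.1 and #7.2. With lines #4 and #7 only, Bmp4, Inhba and Fgf5 had adjusted p-values of 0.21, 0.063 and 0.2. Each of the 3 lost its call in several other alternatives too, Bmp4 and Inhba also on the authors' own values.

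**Figure D5:**
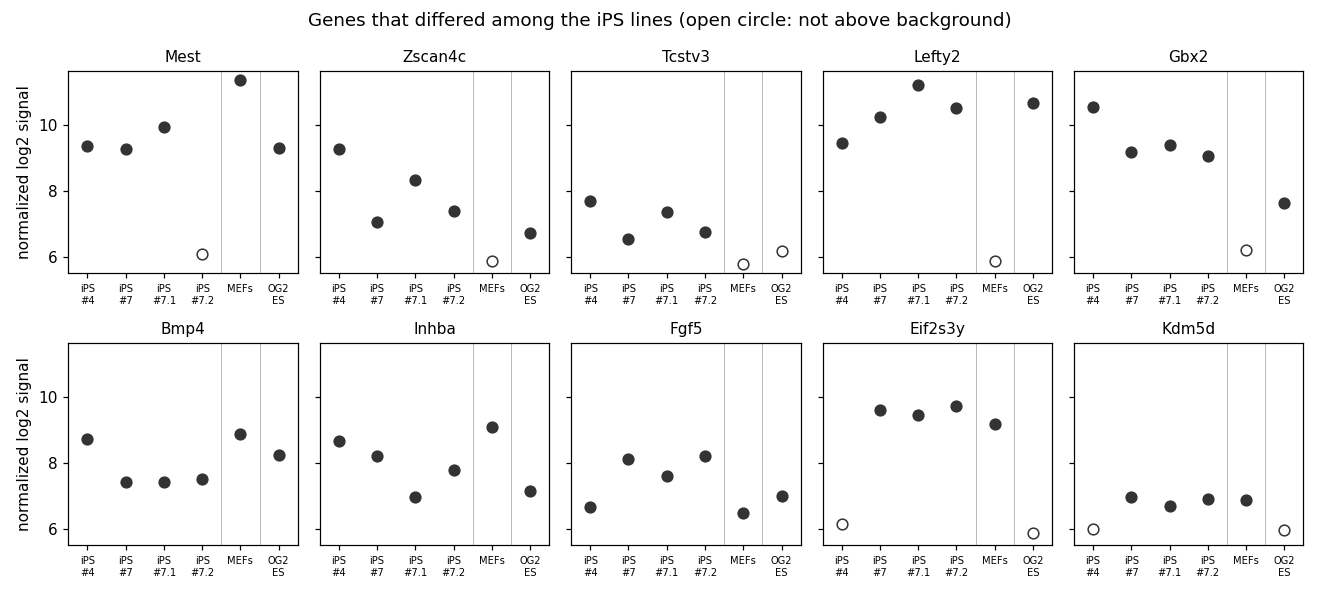
Log2 signals by array (iPS cell lines left, then MEFs, then OG2 ES cells) of called genes that varied among the lines and of the Y-linked genes Eif2s3y and Kdm5d, with open circles for values not above background. Mest dropped to 6.07 in line #7.2, and Eif2s3y to 6.15 in line #4.

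By chromosome, the share of higher genes was 10.6% and that of lower genes 17.2% on the X chromosome (360 genes tested), where the X-linked genes Kdm6a and Ddx3x were 2.53-fold and 2.05-fold higher. Ddx3x was under 2-fold with median scaling (0.78) and without line #7 (0.93). Among the autosomes the share of higher genes was between 10.1% and 15.3% and that of lower genes between 10.3% and 17.9%, so both shares on the X chromosome lay within the range of the autosomes.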

How the data were processed

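One Illumina mouse-8 V2 BeadChip was hybridized per culture with amplified biotin-labeled cRNA. The deposited files hold probe intensity exported from BeadStudio (version not given in the sources used here), before background subtraction. The authors' series table holds intensity after background subtraction and cubic spline normalization, and was used for the background and as an alternative. Exported signals were corrected by normexp (offset 50), quantile normalized over 6 arrays and log2-transformed in R 4.3.3 with limma 3.58.1. Background was the exported signal at which the authors' value is 0, and a probe was above it by 2.326 noise SDs. Of 25697 probes, 23978 name 1 gene and 1719 none. They stand for 16593 genes, each represented by its brightest probe, with symbols and chromosomes from RefSeq (GRCm38.p6). A gene was tested if above background on at least 1 of the 5 arrays.

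A limma fit of all 6 arrays in 3 groups, which left 3 residual degrees of freedom, gave the contrast of the 4 lines with the MEFs, and p-values were adjusted over all tested genes by Benjamini-Hochberg. Minimum folds were set against the dimmest probe above background on each array. Only the fit and the rule for calls were tried on simulated normalized values. There the MEF array was given the spread of the iPS cell lines, so that assumption could not be tested. The 51 gene lists and the symbol families were chosen with earlier results of these data known, so their counts are descriptions. Named are the 12 largest calls in each direction outside the markers, up to 6 called members of a list and 3 of a family with calls both ways in each direction, the 10 called genes that vary most among the lines, check genes, and members that did not pass where they account for a list. Igf2r, Gnas, Twist2, Anxa2, S100a11, Lmnb1, Lgals1, Lgals3, Cldn11, Acvr1, Fst and Mcm7 lie outside this rule and were named after their values were seen.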

Additional observations from a re-analysis of the deposited data

Results flagged for a closer look

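Among 305 named genes, the lowest or highest of the 4 iPS cell lines stood apart from the other 3 by more than Dixon's 95% critical value, a set share of their range, in 21 genes. Chance alone gives such a gap in about 1 of 20 genes. Line #4 was the line apart in 17 of the 21. It is also the one line that does not descend from line #7.

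Line #4 was low for Eif2s3y (log2 signal 6.15, against 9.46 to 9.73 in the other 3 lines), Igfbp4 (7.55, against 8.20 to 8.33), Dkk3 (6.75, against 7.28 to 7.34), Smpd1 (7.2, against 7.53 to 7.6), Cox6b2 (8.97, against 9.46 to 9.51), Pold1 (10.59, against 10.95 to 11.01) and Cdkn1a (10.21, against 10.53 to 10.57). Smaller gaps below the other lines were seen for Aurka (10.3), Lmnb2 (9.14) and H2-D1 (6, not above background). Line #4 was high for Bmp4 (8.72, against 7.42 to 7.50), Anxa2 (11.16, against 10.17 to 10.24), Itga3 (8.97, against 8 to 8.14), Dnmt3l (12.37, against 11.52 to 11.58), Dusp1 (11.17, against 10.35 to 10.47), Kif3c (7.53, against 7.05 to 7.1) and Tlr2 (6.5, against 6.06 to 6.13).

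In the other lines the gaps were small. Fzd10 was 7.43 and Hsp90aa1 9.49 in line #7.2, Phc1 was 12.03 in line #7, and Hk2 was 11.88 in line #7.1.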

How the results depend on the processing

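Counts of called genes stayed within 1.5 times of 1400 higher and 1380 lower under all alternatives but a change of the fold threshold, which gave 2359 higher and 2257 lower genes at 1.5-fold and 302 and 470 at 4-fold. No called gene turned in direction and stayed called. Leaving out 1 iPS cell line at a time gave 1382 to 1408 higher and 1380 to 1387 lower genes. Scaling to a common median made 36.3% of the calls higher, against 50.4% after quantile normalization, and the cause was not tested. Of 289 named genes that were called, 255 kept the call in all 13 alternatives, and 34 lost it in at least 1, most often (21) with the mean of a gene's probes in place of the brightest. That mean reversed Irgm1 (−0.08) and Ifngr2 (−0.46). Median scaling reversed Ccnd3 (−0.1), which was not called. Leaving out 1 line at a time moved Eif2s3y between −0.78 and 0.41 and Uty between −0.1 and 0.04, each positive only without line #4. Neither was called. No paired analysis was possible because the MEFs have 1 array and share no replicate with the lines beyond a number. Values near background limit what can be said of dim genes, for which only a minimum fold is given. With 1 MEF array and 3 lines of 1 derivation, the spread between independent cultures was hardly sampled.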
